A study of Gallus gallus with 2 samples.

Results

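The library described here, SM0, holds the transcripts of the undamaged chick basilar papilla (BP) at posthatch day 1, before any exposure to streptomycin (SM). RNA was pooled from 50 BP explants of male Momiji chicks, after the surrounding tissue and the tectorial membrane had been loosened and removed with thermolysin. The time that these explants spent in culture before extraction is not given in the sources used here. Of the 23842 genes in the deposited table, 12699 had a TPM (the length-corrected unit of transcript level) of at least 1, and these were taken as the genes of the undamaged BP. Because TPM corrects the reads of a gene for its length, levels of different genes are set side by side here. The correction does not settle reads shared by near-identical or overlapping genes, so ratios between genes are approximate. There was 1 library, so no value has a replicate error and no test was possible. The deposited TPM do not keep the sequencing depth, and read counts were not used here, so no counting interval is given.

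The BP is the auditory epithelium of birds. Its hair cells (HCs) carry the stereocilia bundle that converts sound into current, and they release glutamate at ribbon synapses onto fibres of the cochlear ganglion. Supporting cells (SCs) surround each HC, rest on the basilar membrane, are coupled by gap junctions and are the cells that can replace lost HCs in birds. The tectorial membrane, an extracellular gel of tectorins and otogelins, lies over the bundles, and its proteins are made by the epithelium itself.

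The 12699 genes held 99.8% of all TPM and made up 53.3% of the genes in the table, the background against which the gene lists below are read. Among genes annotated as protein coding in RefSeq, the share at 1 TPM or more was 73.8%, and among long noncoding RNA genes it was 12.5%. The 53.3% includes noncoding genes, so a list with a share between 53.3% and 73.8% is not above protein-coding genes. The median level over the 12699 genes was 17.4 TPM, with quartiles of 6.10 and 42.6 TPM. At least 10 TPM was reached by 34.5% of all genes in the table, at least 100 TPM by 5.44% and at least 1000 TPM by 0.633%, which is 151 genes. At the limit itself, 18 genes stood at 1.00 TPM and 19 genes just outside it at 0.99 TPM, TBX20 among them. Of the rest, 5936 genes were listed at 0. A listed 0 does not show that a transcript was absent, because ATP8, a mitochondrial gene that overlaps ATP6, was listed at 0 while ATP6 had 6161 TPM.

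The pool was dominated by a few small proteins. Only 28 genes held 25% of all TPM, 185 genes held 50%, and 4109 genes held 90%. S100A1 (gene ID 100858258), a small calcium-binding protein with EF-hands, was the most abundant transcript with 87559.95 TPM, 8.76% of the total. Another member of its family, S100A6 (gene ID 373951), ranked second with 24827 TPM, so that S100A1 was 3.53 times as abundant as the next gene. S100A10, the partner of annexin A2, followed at rank 15 with 5212 TPM, and S100A11 at rank 45 with 2458 TPM. The 11 genes named S100 together made up 12.1% of all TPM. The family was far from uniform, since S100A16 and S100A14 had 230.0 and 229 TPM, S100A13 had 5.31 TPM, S100B had 2.68 TPM and S100A4 was under the limit with 0.36 TPM.

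Of the 30 most abundant genes, 9 encoded cytosolic ribosomal proteins, 5 were mitochondrial protein genes, 5 were glycolytic and 3 were S100 genes. The ribosomal protein genes numbered 75, with a median of 1748 TPM, and held 15.5% of all TPM, led by RPS29 (10337 TPM) and RPL37A (6955 TPM). The 13 mitochondrial genes held 3.88%, with COX3 at 6168 TPM, COX2 at 5600 TPM (rank 12) and COX1 at 4625 TPM. Glycolytic genes, a list added after their values were seen, were among the most abundant. GAPDH was the third most abundant gene of the library with 10884 TPM, ENO1 had 5948 TPM at rank 10, and ALDOC, PKM and LDHA had 3329, 3223 and 3194 TPM. All 19 matched genes of glycolysis, glucose uptake and lactate export were above 1 TPM, and 10 of them were above 1000 TPM. Over all genes in the table, 53.3% were at 1 TPM or more and 0.633% at 1000 TPM or more. The glucose transporter SLC2A1 had 457 TPM and the lactate exporter SLC16A3 had 405 TPM, whereas the muscle-type phosphofructokinase PFKM had 1.81 TPM.

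The other 8 genes of the 30 were UBB, LOC768772, TMSB4X, EEF1A1, MIF, TECTB, GSN and ACTC2L. UBB (7893 TPM) encodes ubiquitin and ACTC2L (3279 TPM) an actin, and both belong to families with near-identical copies that can share reads, so their levels are uncertain. LOC768772, with 6176 TPM at rank 7, is annotated as a long noncoding RNA. TMSB4X (5497 TPM) encodes thymosin beta, which binds actin monomers, and GSN (3636 TPM) encodes gelsolin, which severs actin filaments. EEF1A1 (5357 TPM) is a translation elongation factor, and MIF (4605 TPM) is a cytokine and tautomerase. TECTB, with 3949.7 TPM at rank 21, encodes beta-tectorin and was the only one of these 8 in the lists of inner ear genes.

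**Figure D1:**
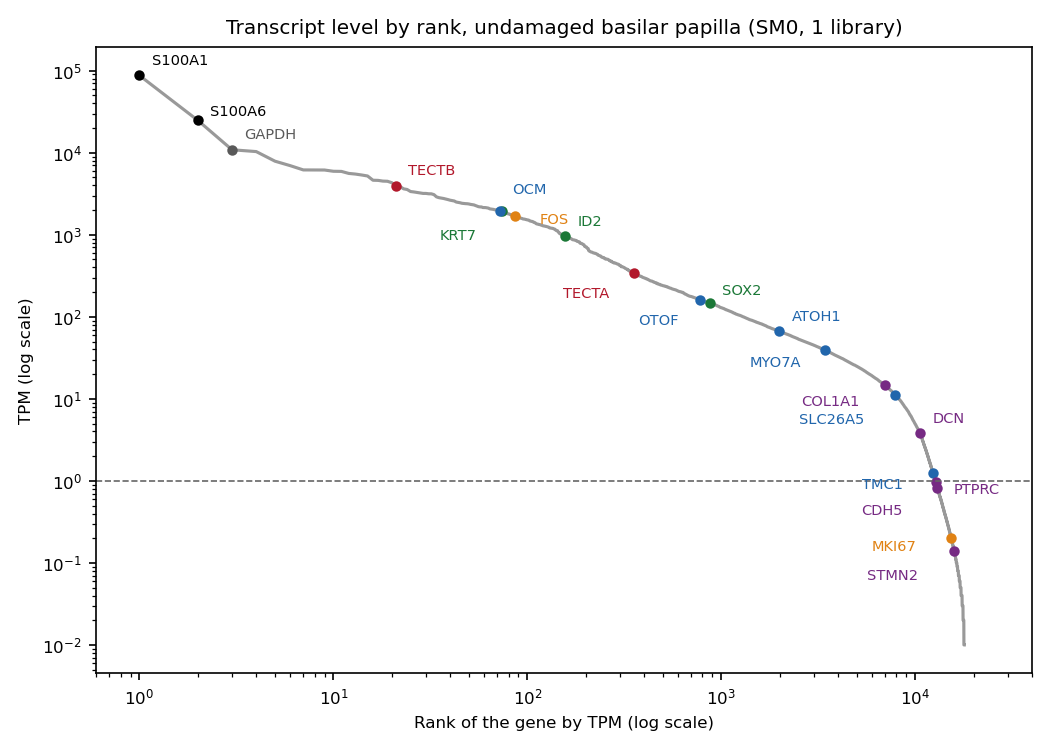
Level of every gene above 0 in the SM0 library (TPM, log scale) against its rank (log scale), with named genes marked as points: blue for HC genes and OCM, green for SC and epithelial genes, red for tectorins, purple for surrounding tissue, orange for FOS and MKI67, black and grey for the 3 most abundant genes. The dashed line is the limit of 1 TPM, which 12699 genes reached; marked HC genes spread from OTOF at 162 TPM to TMC1 at 1.26 TPM, while TECTB stands at 3949.7 TPM.

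The label of the library names HCs and SCs, and the markers of both were present. Of 101 matched HC genes in 6 lists, 95 (94.1%) had at least 1 TPM. The share was 53.3% over all genes in the table and 73.8% over protein-coding genes. The level of the HC genes was ordinary for an expressed gene, since the median over those 95 genes was 15.7 TPM and 17.4 TPM over all expressed genes. All 29 genes of the SC list were at 1 TPM or more, with a median of 68.0 TPM. The HC and SC lists were chosen with earlier results of these data known, so these shares do not test the label. The SC list includes BMP4, which the study ties to HCs, and the median without it was 69.5 TPM. The HC lists in turn include ATOH1, which the study's in situ hybridization placed in a few SCs at SM0. In a bulk pool, fewer cells of a type and less RNA per cell cannot be told apart, so these levels do not give the share of HCs and SCs.

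**Figure D2:**
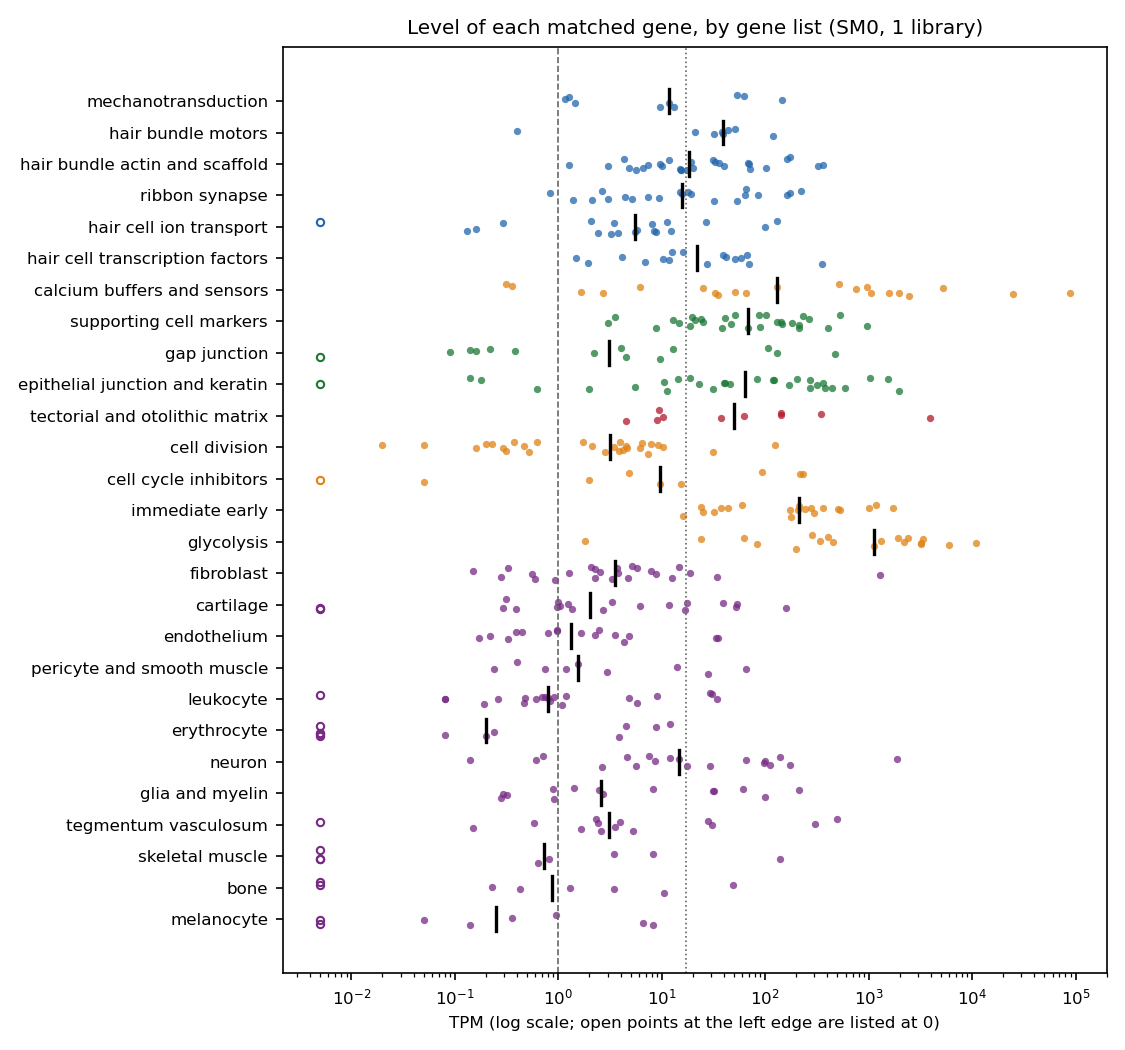
TPM (log scale) of each matched gene in 27 lists, 1 point per gene in the single SM0 library, with HC lists in blue, SC and junction lists in green, tectorial and otolithic matrix in red, other cell types in purple and the rest in orange. The black bar is the median over all matched genes of the list, the dashed line is 1 TPM, the dotted line is the median of the 12699 expressed genes (17.4 TPM), and open points are listed at 0; the SC bar lies at 68.0 TPM, while the bars of leukocyte, erythrocyte, skeletal muscle, bone and melanocyte genes lie under 1 TPM.

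Mechanotransduction genes spanned a wide range of levels. CIB2, a calcium-binding subunit of the channel complex, was the highest of the 9 matched genes with 147 TPM, and its paralogue CIB3 was the lowest with 1.16 TPM. Of the pore-forming subunits, TMC2 had 62.0 TPM and TMC1 had 1.26 TPM, a ratio of 49.2. LHFPL5, which links the channel to the tip link, had 53.0 TPM, whereas TMIE, another subunit, had 1.46 TPM. The tip link cadherins were near each other, with 13.1 TPM for PCDH15 and 11.7 TPM for CDH23. PIEZO2, a mechanically gated channel found at the apical surface of mouse HCs, had 9.74 TPM. The gene listed as LRTOMT, which in human includes the methyltransferase needed for transport of the channel, had 92.1 TPM.

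Of the 8 motor genes of the bundle, 7 (87.5%) had at least 1 TPM, against 53.3% of all genes in the table and 73.8% of protein-coding genes. MYO6, at the base of the stereocilia, had the highest level with 118 TPM. MYO7A, whose protein marks HCs in immunostaining, and MYO15A, which carries proteins to the tips, had nearly equal levels of 39.4 and 38.2 TPM. MYO1H had 51.6 TPM, a gene that carries the current symbol MYO10 had 43.9 TPM, and MYO1C had 32.1 TPM. MYO3A stood at 20.9 TPM, but its paralogue MYO3B was under the limit with 0.40 TPM.

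The actin and scaffold genes of the stereocilia formed the largest of the 6 HC lists, and all 28 that matched were at 1 TPM or more. That level was reached by 53.3% of all genes in the table and 73.8% of protein-coding genes. The summed level of the 28, 1641 TPM, was the highest of the 6 lists, but a sum grows with list size. Their median was 18.4 TPM, under the 39.4 TPM of the motor genes and the 21.8 TPM of the transcription factors. PLS3 and FSCN2, both of which cross-link actin filaments, had 360 and 326 TPM, and ESPN, another cross-linker of parallel actin bundles, had 175 TPM. Plastins differed, since PLS1, the main plastin of mammalian stereocilia, had 20.05 TPM and LCP1 had 1.27 TPM. The Usher proteins ranged widely. The ankle link organiser PDZD7 had 103 TPM and harmonin (USH1C) 69.5 TPM, while ADGRV1 had 9.63 TPM, WHRN 6.61 TPM, CLRN1 4.33 TPM and USH1G 3.04 TPM. EPS8L2 and EPS8, which regulate the length of stereocilia in mice, had 162 and 71.3 TPM. The genes for GRXCR1 and GRXCR2 were low, with 5.68 and 4.88 TPM.

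At the ribbon synapse, 20 of 21 genes (95.2%) had at least 1 TPM, against 53.3% of all genes in the table and 73.8% of protein-coding genes. The small GTPase RAB15 led with 224 TPM, followed by CABP2, which tunes the presynaptic calcium channel, with 172 TPM, and otoferlin (OTOF), the calcium sensor of HC exocytosis, with 162 TPM. The vesicular glutamate transporter SLC17A8 had 53.2 TPM, and the pore of the presynaptic channel, CACNA1D, had 18.1 TPM. CTBP2, whose RIBEYE form builds the ribbon, had 15.7 TPM, counted over all of its transcripts. Scaffold genes of the active zone were low, with 4.43 TPM for RIMS2, 3.02 TPM for BSN and 1.38 TPM for PCLO. CPLX2, a complexin, had 2.67 TPM, and CPLX1, another of that family, was under the limit with 0.83 TPM.

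Ion channel and transport genes had the lowest median of the 6 HC lists, 8.13 TPM over those at 1 TPM or more. Of 19 genes, 15 (78.9%) were at 1 TPM or more, against 53.3% of all genes in the table and 73.8% of protein-coding genes. At least 10 TPM was reached by 5 (26.3%, against 34.5% of all genes in the table). CHRNA10 and CHRNA9, subunits of the efferent acetylcholine receptor, had 129 and 26.8 TPM, a ratio of 4.82. The calcium-activated KCNN2 channel, which follows that receptor, had 8.13 TPM. The large-conductance channel KCNMA1, which tunes avian HCs electrically, had 8.48 TPM, and its accessory subunits were lower, with 2.45 TPM for KCNMB4, 0.29 TPM for KCNMB2 and 0.13 TPM for KCNMB1. Prestin (SLC26A5), the motor protein of mammalian outer HCs, had 11.2 TPM. The plasma membrane calcium pump ATP2B2, the bundle isoform in mammals, had 8.90 TPM, and ATP2B1 had 99.1 TPM. KCNH6 was listed at 0.

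All 16 matched transcription factor genes of HCs were at 1 TPM or more, against 53.3% of all genes in the table and 73.8% of protein-coding genes. The symbol POU4F3 was attached to a pair of genes, 69.3 TPM for gene ID 107054548 and 39.4 TPM for gene ID 395521, which RefSeq now calls POU4F1L. ATOH1, the factor that commits cells to the HC fate, had 66.5 TPM. The study's in situ hybridization showed ATOH1 before SM exposure in a few SCs. LHX3 had 41.7 TPM, GFI1 27.4 TPM and BARHL1 10.2 TPM. INSM1, a factor of newborn outer HCs in mice, was the lowest of the 16 with 1.49 TPM, and NHLH1 had 4.13 TPM.

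**Figure D3:**
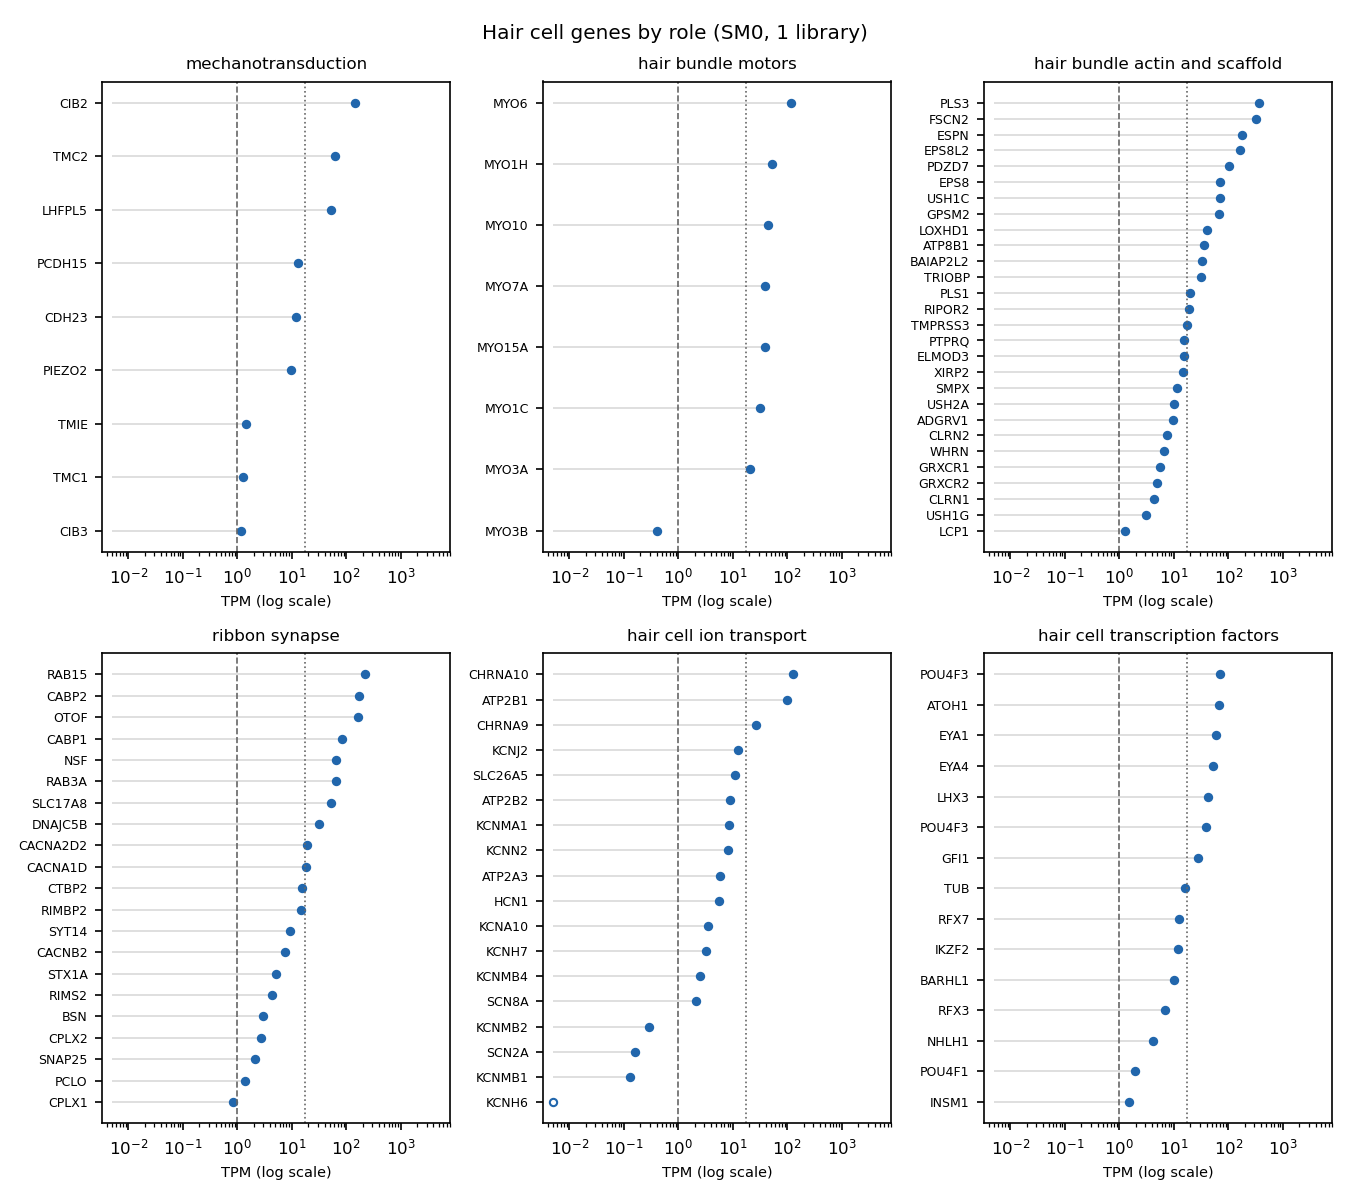
TPM (log scale) of matched HC genes in the SM0 library, in 6 panels by role, ordered from high to low; the dashed line is 1 TPM, the dotted line is the median of the 12699 expressed genes, and the open point is listed at 0. PLS3 at 360 TPM was the highest of the 101 genes, and MYO3B, CPLX1, KCNMB2, SCN2A, KCNMB1 and KCNH6 lie left of 1 TPM; POU4F3 appears as 2 genes.

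Among calcium buffers and sensors, 19 of 21 genes (90.5%) had at least 1 TPM, against 53.3% of all genes in the table and 73.8% of protein-coding genes. At least 1000 TPM was reached by 7 of the 21, against 0.633% of all genes in the table. OCM (gene ID 386586, now OCM1), a parvalbumin-type buffer, had 1966 TPM at rank 72, and PVALB had 1.67 TPM. CALB1, which encodes calbindin, had 1061 TPM, 41.9 times the 25.3 TPM of CALB2, which encodes calretinin. NRGN, a calmodulin-binding protein best known from neurons, had 1587 TPM. The calmodulin gene CALM2 had 757 TPM, and EFHD1, a mitochondrial EF-hand protein, had 956 TPM. Together the 21 genes of the list, S100A1 included, held 12.7% of all TPM. Which cells of the BP carried the S100A1 and S100A6 transcripts cannot be read from a pool.

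Genes of the SC list were high, with 24 of 29 above the median of all expressed genes. The inhibitors of basic helix-loop-helix factors led the list, with 964 TPM for ID2, 408 TPM for ID3 and 266 TPM for ID1. HEY1, a repressor downstream of Notch and FGF signals, had 532 TPM, but the classical Notch target HES5 had 3.55 TPM, HEYL 14.8 TPM and HEY2 40.7 TPM. NOTCH1 had 51.5 TPM, its ligand JAG1 38.2 TPM and the fringe enzyme LFNG 18.9 TPM. Among SOX factors, SOX10 had 211 TPM, SOX2, whose protein marks SC nuclei, 146 TPM, SOX21 143 TPM and SOX9 89.8 TPM. FABP7, a fatty acid carrier of glia-like cells, had 182 TPM, and the glutamate transporter SLC1A3 had 211 TPM. FGFR3, a receptor kept in quiescent SCs, had 103 TPM. The transcription factors EMX2 and GATA3 had 132 and 87.5 TPM, and BMP4, a secreted signal, had 68.0 TPM. LGR5, a mark of SCs with progenitor capacity in the mouse cochlea, had 19.5 TPM, and LGR6 was the lowest of the list with 3.03 TPM.

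Gap junctions rested on few genes. GJB6 (connexin 30) had 469 TPM, GJA1 (connexin 43) 130.3 TPM and GJB2 (connexin 26) 108 TPM, so GJB6 was 4.36 times as abundant as GJB2. Of the 14 matched connexin and pannexin genes, 8 were at 1 TPM or more, and the other 6 were at or below 0.38 TPM. The 8 are 57.1%, against 53.3% of all genes in the table and 73.8% of protein-coding genes. Of 30 junction and keratin genes, 26 (86.7%) were at 1 TPM or more, above both of those shares. At least 100 TPM was reached by 14 of the 30, against 5.44% of all genes in the table. KRT7 had 1955 TPM, CLDN1 1531 TPM, EPCAM 1029.8 TPM and CLDN3 589 TPM. Of the cadherins, CDH1 had 378 TPM, CDH3 360 TPM and CDH2 119 TPM. KRT8 (121 TPM) and KRT18 (273 TPM) are keratins of simple epithelia. KRT14 had 40.9 TPM, while KRT5 had 1.97 TPM and KRT75 was listed at 0. CLDN14, a claudin needed for HC survival in mice, had 0.14 TPM, and CLDN9 had 19.0 TPM.

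Transcripts of the tectorial and otolithic matrix list ran from 3949.7 TPM for TECTB to 4.47 TPM for ZPLD1. Of the 10 matched genes, 4 were at 100 TPM or more, against 5.44% of all genes in the table. TECTB, beta-tectorin, was 11.5 times as abundant as TECTA, alpha-tectorin, which had 344 TPM at rank 356. Otogelin-like (OTOGL) had 142 TPM, 13.7 times the 10.4 TPM of otogelin (OTOG). OTOA, which anchors the membrane to nonsensory cells in mice, also had 142 TPM. All 10 matched genes of the list were above 1 TPM, a level reached by 53.3% of all genes in the table and 73.8% of protein-coding genes. Genes known from the otoconia and otoliths of the vestibular organs were lower, with 62.4 TPM for OC90, 9.45 TPM for OTOL1 and 9.01 TPM for OTOP1. COCH, a matrix protein mostly made by fibrocytes in the mammalian cochlea, had 37.8 TPM.

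**Figure D4:**
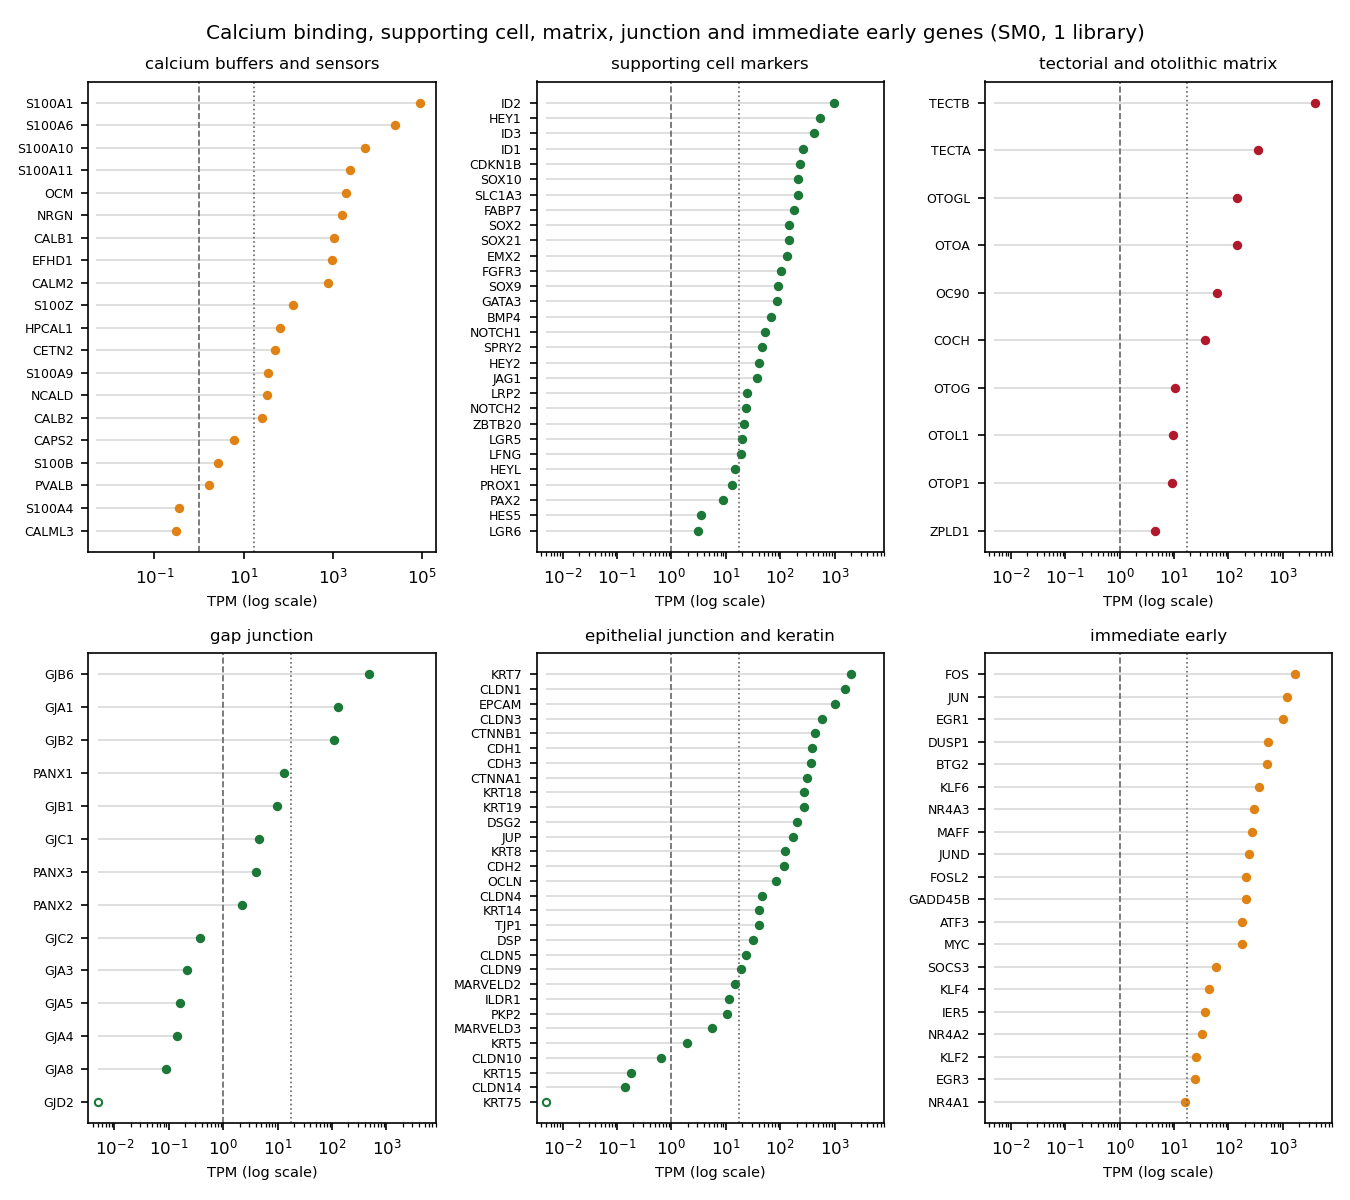
TPM (log scale) of matched genes in 6 panels for calcium buffers and sensors, SC markers, tectorial and otolithic matrix, gap junctions, epithelial junctions and keratins, and immediate early genes in the SM0 library. Dashed line 1 TPM, dotted line 17.4 TPM, open points listed at 0; the immediate early genes run from FOS at 1707 TPM to NR4A1 at 15.9 TPM, and the gap junction panel breaks between GJB2 at 108 TPM and PANX1 at 12.9 TPM.

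The 26 further genes known from human deafness included EYA4, MARVELD2, POU3F4 and ESRRB from the other lists. Of the 26, 21 (80.8%) were at 1 TPM or more, against 53.3% of all genes in the table and 73.8% of protein-coding genes. ACTG1, a cytoplasmic actin, was the highest of the 26 with 249 TPM. The lysyl-tRNA synthetase KARS had 177 TPM and the nonmuscle myosin MYH9 105 TPM. HGF and DIAPH3 stood under the limit with 0.59 and 0.14 TPM, and P2RX2 was listed at 0.

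Cell division genes were low in level. Of 28 matched genes, 17 (60.7%) were at 1 TPM or more. That share was 53.3% over all genes in the table and 73.8% over protein-coding genes. The median over those 17 was 4.63 TPM, against 17.4 TPM over all expressed genes. At least 10 TPM was reached by 3 (10.7%, against 34.5% of all genes in the table). PCNA, a clamp for DNA synthesis that also serves DNA repair, was the exception with 124 TPM. RRM1 had 31.5 TPM, MCM2 9.21 TPM, RRM2 4.63 TPM, CDK1 3.46 TPM and TOP2A 2.84 TPM. MKI67, CENPE and CENPF stood at 0.20, 0.05 and 0.02 TPM. Of 6 CDK inhibitor genes, 4 were at 1 TPM or more, and p27 (CDKN1B), p57 (CDKN1C) and p21 (CDKN1A) had 234, 219 and 93.1 TPM. CDKN2B had 1.99 TPM, CDKN2C had 0.05 TPM, and CDKN2A was listed at 0. The pocket proteins RB1, RBL2 and RBL1, which hold back entry into the cell cycle, had 15.3, 9.73 and 4.82 TPM.

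Immediate early genes, which respond to stimulation and handling within minutes in most tissues, were high in this undamaged library. All 20 matched genes were above 10 TPM, against 34.5% of all genes in the table, and their median was 210.2 TPM. FOS had 1707 TPM at rank 86, JUN 1169 TPM and EGR1 1015 TPM. DUSP1, BTG2 and KLF6 followed with 530, 505 and 365 TPM, and ATF3 and MYC had 177 and 175 TPM. Before extraction, the papillae were incubated with thermolysin and then moved to medium that held serum. The part of these steps in these levels was not tested.

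Markers of other cell types differed widely in level between and within lists. The 12 lists held 172 matched genes, of which 102 (59.3%) had at least 1 TPM. That share lay between the 53.3% of all genes in the table and the 73.8% of protein-coding genes. At least 10 TPM was reached by 44 of the 172 (25.6%, against 34.5% of all genes). At least 100 TPM was reached by 12 (6.98%, against 5.44%). The summed level of a list ran from 16.4 TPM for melanocytes (8 genes) to 2674 TPM for neurons (19 genes). UCHL1 and GAP43 held 76.9% of the neuronal sum, and a sum grows with list size, so the sums do not rank the tissues. Fibroblast genes were present at low levels, with 18 of 24 at 1 TPM or more and 5 at 10 TPM or more. The fibrillar collagens COL1A1, COL1A2 and COL3A1 had 14.6, 5.74 and 3.73 TPM, DCN 3.78 TPM, POSTN 3.34 TPM and LUM 2.27 TPM. Vimentin (VIM), with 1289.8 TPM, is also an SC filament and took most of that list; without it and COL5A1 (34.1 TPM), the highest was FN1 with 18.6 TPM. Of 20 cartilage genes, 13 (65.0%) were at 1 TPM or more. MATN4 had 158 TPM, COL2A1 53.5 TPM and COL9A3 52.7 TPM, but ACAN, the main proteoglycan of cartilage, had 0.39 TPM, and MATN1 was listed at 0.

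Several defining markers of blood vessels and blood cells were under 1 TPM. Of 16 endothelial genes, 8 (50.0%) were at 1 TPM or more, against 53.3% of all genes in the table. With a minimum of 0.5 TPM the share turned to 68.8%, against 58.0% of all genes, and without the 10 most abundant genes it was 62.5%, against 54.5%. CDH5, KDR, TEK and TIE1, which define endothelium, had 0.97, 0.79, 0.33 and 0.22 TPM. EGFL7 and PECAM1, with 34.7 and 33.3 TPM, stood apart from the rest of that list, which reached 4.85 TPM at most. Of 21 leukocyte genes, 8 (38.1%) were at 1 TPM or more, but with a minimum of 0.5 TPM the share was 66.7%, against 58.0% of all genes, and above 0 it was 95.2%, against 75.1%. PTPRC, carried by nearly all leukocytes, had 0.83 TPM, CSF1R 1.09 TPM and C1QA 0.74 TPM. CD3E, CD74 and IRF8 were the highest of the list with 34.4, 30.5 and 29.0 TPM, followed by CTSS, FCER1G and LAPTM5 with 9.08, 5.74 and 4.79 TPM. CD3E was 28.9 times as high as CD3D, its partner in the T cell receptor. The globin gene HBBA had 12.1 TPM, and of 11 erythrocyte genes 4 (36.4%) were at 1 TPM or more and 4 were listed at 0. In the pericyte and smooth muscle list, 6 of 9 genes (66.7%) were at 1 TPM or more. At least 10 TPM was reached by 3 of the 9 (33.3%, against 34.5% of all genes in the table). These were MCAM with 65.1 TPM, CNN1 with 27.8 TPM and RGS5 with 14.2 TPM. PDGFRB had 2.99 TPM and ACTA2 0.24 TPM.

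Neuronal and glial lists were mixed, with 16 of 19 (84.2%) and 9 of 14 (64.3%) genes at 1 TPM or more. That share was 53.3% over all genes in the table and 73.8% over protein-coding genes. UCHL1, an enzyme abundant in neurons, had 1880 TPM at rank 78, GAP43 175 TPM, NEFL 139 TPM, ISL1 113 TPM and NEFM 96.8 TPM. At least 10 TPM was reached by 11 of the 19 neuronal genes (57.9%, against 34.5% of all genes in the table). MAP2, a microtubule protein of dendrites, had 66.0 TPM, SNAP91 29.4 TPM, TUBB3 12.0 TPM, SYT1 8.66 TPM and RBFOX3 4.60 TPM. Under the limit were NTRK3, NEFH and STMN2, with 0.71, 0.61 and 0.14 TPM. Of the myelin genes, CNP and MBP had 61.6 and 31.5 TPM, while PMP2, MAL and PRX had 8.28, 0.32 and 0.28 TPM. GFAP, an intermediate filament of glia, had 0.90 TPM. SOX10 and PMP22 led the glial list with 211 and 100.01 TPM, and SOX10 is also an SC gene. Which cells the neuronal and glial transcripts came from was not tested.

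The tegmentum vasculosum, the secretory roof of the avian cochlear duct, had been cut away before culture. Of its 14 matched genes, 11 (78.6%) were at 1 TPM or more. That share was 53.3% over all genes in the table and 73.8% over protein-coding genes. At least 10 TPM was reached by 4 of the 14 (28.6%, against 34.5% of all genes in the table). ATP6V0A4 and SLC12A2 had 30.4 and 27.9 TPM, and LMX1A had 5.27 TPM. KCNQ1 and KCNE1, the potassium channel of the secretory cells of the tegmentum, had 3.96 and 0.15 TPM. BSND had 2.43 TPM, and FOXI1 was listed at 0. ATP1B1, a subunit that most cells use, had 304 TPM. Skeletal muscle, bone and melanocyte genes were at 1 TPM or more in 3 of 8, 4 of 8 and 2 of 8 cases. TNNC2, a troponin of fast muscle, had 138 TPM although TNNI2 had 0.64 TPM and TNNT3 and MYLPF were listed at 0.

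**Figure D5:**
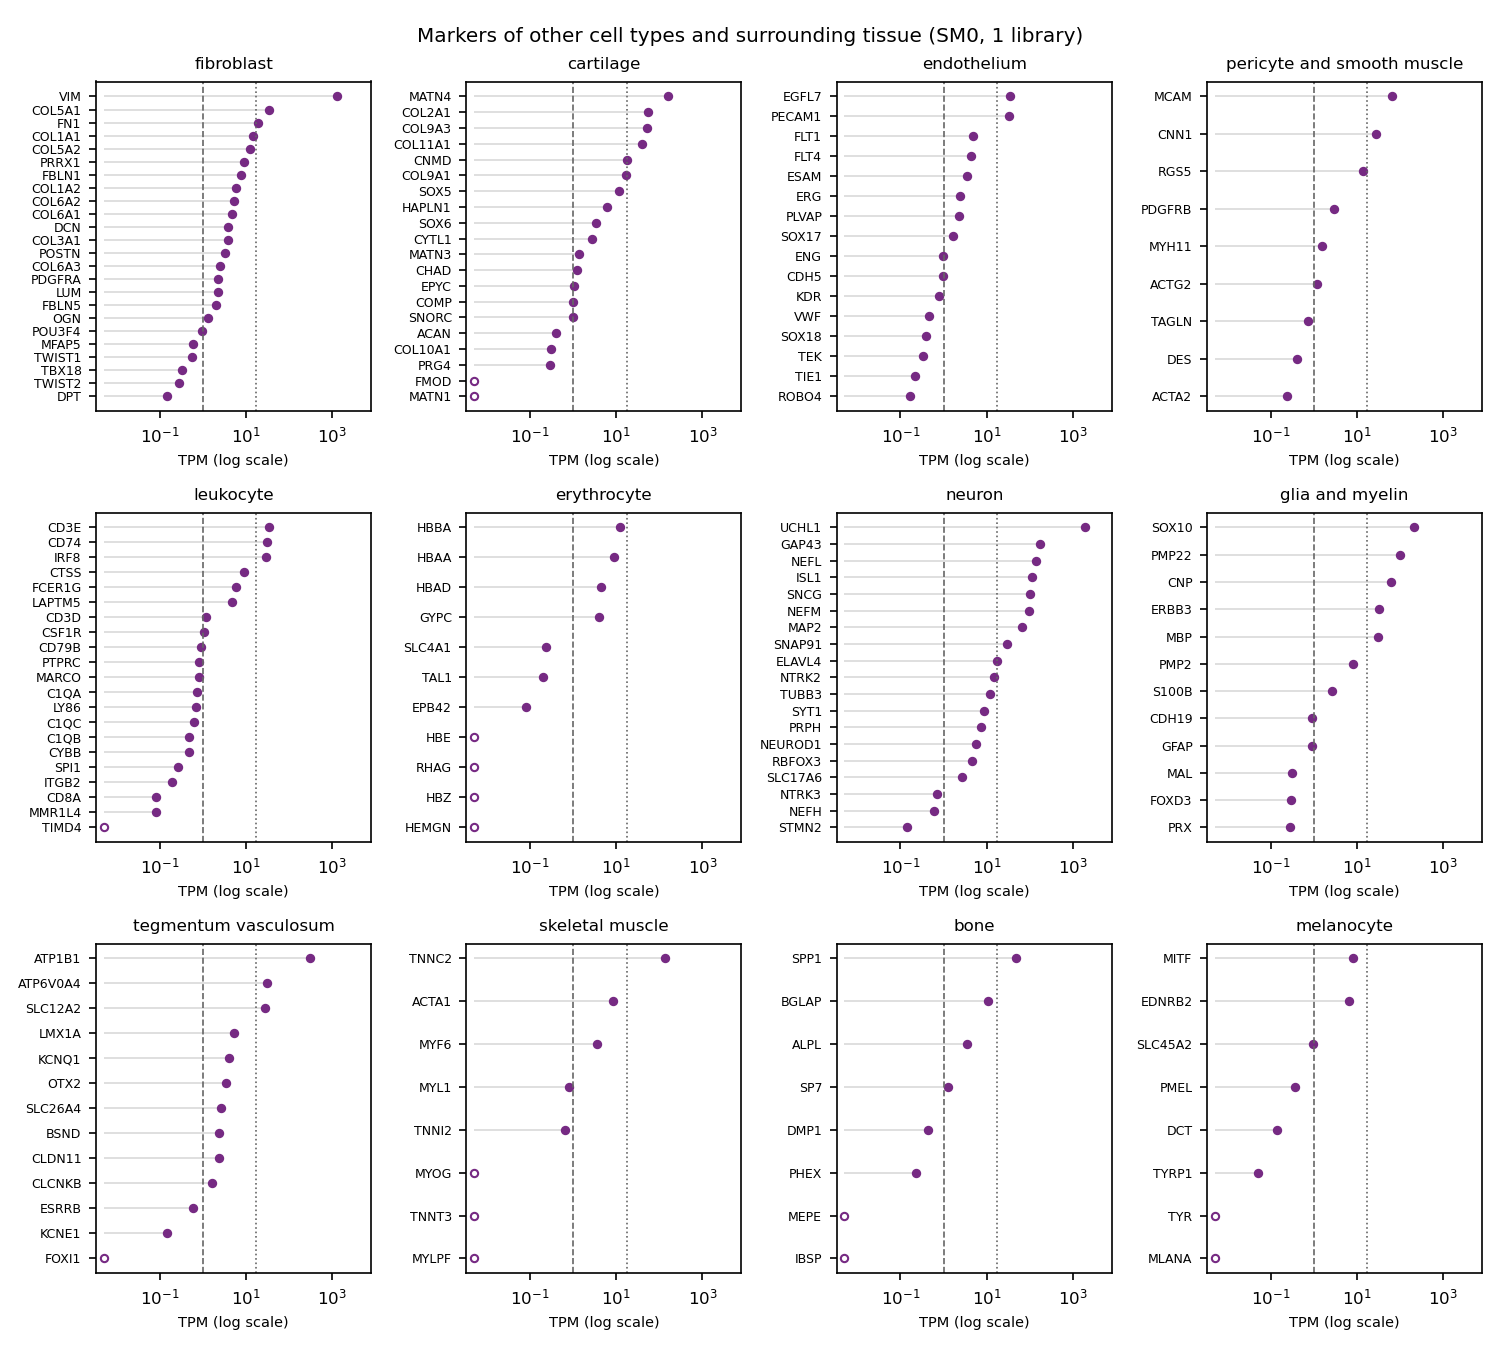
TPM (log scale) of matched markers of 12 other cell types or tissues in the SM0 library, 1 panel per list, ordered from high to low; the dashed line is 1 TPM, the dotted line 17.4 TPM, and open points are listed at 0. In several panels 1 or 2 genes stand far to the right of the rest, such as VIM at 1289.8 TPM, UCHL1 at 1880 TPM and TNNC2 at 138 TPM, while CDH5, PTPRC and ACTA2 lie left of 1 TPM.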

How the data were processed

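RNA of 50 pooled BPs was sequenced as 1 poly(A)-selected library. According to the labels and the study's methods, the authors removed ribosomal RNA reads with Bowtie2 2.1.0, aligned the rest to GRCg6a with STAR 2.7.1a and deposited TPM estimated with RSEM 1.3.0. Whether strand was used is not given in the sources used here, so levels of overlapping genes are uncertain. The post-SM6 library was not used here, and some genes are counted in their lists but not reported singly or drawn by name.

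Genes were ranked by TPM with a minimum of 1 TPM. Members of 27 gene lists and 1 added list (glycolysis) were matched by deposited symbol, then by older or current RefSeq symbol (GRCg7b, whose coordinates are not printed), and 478 of 513 listed symbols matched. The lists were chosen with earlier results of these data known. Named genes were the 30 most abundant and list members; others were chosen after their values were seen. A count or median was called moved past a 1.5-fold change. On simulated data with unique made-up symbols, the code recovered the counts and medians of 20 of 20 lists. That check did not cover matching by older or current symbols, or symbols shared by several genes. Python 3.11.15, numpy 2.4.6, pandas 2.3.3 and matplotlib 3.10.9 were used.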

Additional observations from a re-analysis of the deposited data

How the results depend on the processing

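With no minimum (TPM above 0), the number of listed genes called expressed became 13 for gap junctions, 16 for endothelium, 20 for leukocytes, 7 for erythrocytes, 14 for glia and myelin, 5 for skeletal muscle, 6 for melanocytes and 28 for cell division. With a minimum of 0.5 TPM it became 14 for leukocytes and 5 for skeletal muscle, and with deposited symbols only it was 2 for erythrocytes. All other counts stayed within 1.5 times of those reported, and so did the number of expressed genes, which ran from 11612 with a minimum of 2 TPM to 17906 with none. The share of TPM in the 10 most abundant genes, 17.3%, was 19.7% without ribosomal protein genes. List medians were within 1.5 times under log2(TPM + 1) and without members of other lists, but 15 of 29 moved past 1.5 times when members under 1 TPM were included, and 2 did when the 10 most abundant genes were left out and the rest rescaled. After seeing the data, the 2 highest members of each surrounding tissue list were left out, and 6 of 11 medians then moved past 1.5 times. The SC list without BMP4 was also added after seeing the data, and its median was 69.5 TPM. The precision of levels near 1 TPM was not assessed, since read counts were not used here.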

Other observations

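The genes named here were chosen after their values were seen and are given as levels only. In the RefSeq order of genes, S100A1 and S100A6 lie in 1 stretch with the epidermal differentiation genes that runs from EDQM3 to S100A1. Of its 25 genes, 21 had a TPM. Of these, 12 were at 1 TPM or more, against 53.3% of all genes in the table, and 8 were listed at 0. The stretch held 11.4% of all TPM, but its S100A1 and S100A6 alone held 11.2%. EDCH1 had 874 TPM and EDQM3 had 382 TPM there, whereas EDCH3, EDCH5, EDQM1 and EDWM in the same stretch were listed at 0.

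Of 41 collagen genes, 34 were at 1 TPM or more, led by COL18A1 (198 TPM) and COL9A2 (178 TPM). Among 84 genes of potassium channels and their subunits, 45 were at 1 TPM or more. Of these, 1 was above 100 TPM, the beta subunit KCNAB1 with 107 TPM. Over all genes in the table, 53.3% were at 1 TPM or more and 5.44% at 100 TPM or more. Over protein-coding genes, the share at 1 TPM or more was 73.8%. The potassium channel share was thus near that of all genes. Of 25 unconventional myosins, MYO1E came second with 69.0 TPM. The heat shock genes HSPA8, HSP90AA1 and HSPB9 had 1141, 638 and 614 TPM.

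No gene of the HOX clusters was at 1 TPM or more, with 39 of 40 listed at 0 and HOXA2 at 0.44 TPM, and none of 108 olfactory receptor genes was, with OR5I1 the highest at 0.26 TPM. The chicks were male, and of 61 genes on chromosome W of GRCg7b, 53 were listed at 0 and 2 were at 1 TPM or more. These were the gene listed as NEDD4L (gene ID 374119), with 164 TPM, and LOC112531967, with 5.88 TPM. The authors aligned to another build, so the placement of these genes in it was not checked.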
